A study of Mus musculus with 75 samples.

Results

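The genes described here are 10 cytokine genes, chosen by gene identifier from 53465 identifiers in the deposited count tables: Il2 (ENSMUSG00000027720), Ifng (ENSMUSG00000055170), Tnf (ENSMUSG00000024401), Lta (ENSMUSG00000024402), Il4 (ENSMUSG00000000869), Il10 (ENSMUSG00000016529), Il17a (ENSMUSG00000025929), Csf2 (ENSMUSG00000018916), Il3 (ENSMUSG00000018914) and Tgfb1 (ENSMUSG00000002603). Cytokines are secreted or surface proteins by which T cells act on each other and on other immune cells. A naive CD4 T cell makes little of most of them, and engagement of the antigen receptor with CD28 switches on their transcription through factors such as NFAT, AP-1 and NF-kappaB. Regulatory T cells (Tregs) restrain other T cells, take up the growth factor interleukin 2 and carry the suppressive cytokines transforming growth factor beta and interleukin 10. Many cytokine mRNAs also carry AU-rich elements that shorten their life and limit their translation, so level and ribosome association need not move together.

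RNA was sequenced from CD4 effector T cells (CD4+CD25-) of mouse spleen and lymph nodes in 2 assays of ribosome association. RiboTag used 5 mice of a cross between B6N.129-Rpl22tm1.1Psam/J mice and the line B6.Cg-Tg(Cd4-cre)1Cwi/BfluJ, in which Cre driven by Cd4 switches on a hemagglutinin-tagged ribosomal protein Rpl22. Each gave a stimulated culture with Tregs, a stimulated culture (anti-CD3/CD28 beads) and a culture rested in IL7, and each culture gave ribosome-bound RNA (IP) and Input, 30 libraries in all. The effector cells of these mice carry the tag in all RiboTag groups, the rested ones included. SPEED used 4 mice of the genotype B6.SJL-PtprcaPepcb/BoyJ, which the series design calls C57/B6, and sucrose fractions: polysomal RNA (Pol), subpolysomal RNA (SubPol) and Input, 45 libraries. SPEED cultures were stimulated with beads and HHT in the last 10 min (mice 1 to 3), stimulated with Tregs, stimulated, or untreated. Tregs were CD4+YFP+ cells, and control cultures were matched for cell density with further effector cells, in some cases CD4+YFP- cells of Foxp3YFP-Cre mice. These added cells are not described as cells of the tagged cross. Input may thus hold RNA of cells that IP does not draw on, and the share of such RNA was not tested. The sources used here say neither what HHT is nor whether Tregs were taken out before lysis, and the age of the mice was not used.

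RiboTag libraries held 1658481 to 2824875 counts and SPEED libraries 1566501 to 4621104. The tables hold identifiers without names, and no table used here pairs them with symbols, so markers of CD4 T cells, of Tregs and of other cells could not be checked. Levels are CPM, the counts of a gene per 1000000 counts of its library after TMM scaling. They are relative to the depth of the library, so they cannot show whether a cell held more or less RNA in all. CPM is not divided by transcript length, and levels are compared between samples, not between genes. These are bulk samples, in which fewer cells making a cytokine and less RNA per cell cannot be told apart. Among IL7-rested Input libraries, those of mice 1 and 2 were higher for Lta than those of mice 3 to 5, and the untreated SubPol library of mouse 3 held the fewest detected genes in SPEED (12851). The profile of 29 of 30 RiboTag and 38 of 44 SPEED libraries deviated most like the other libraries of its own mouse. The 6 exceptions in SPEED were HHT SubPol, HHT Pol and stimulated SubPol of mouse 2 and HHT, stimulated and untreated Input of mouse 3. The 3 Input libraries of mouse 3 were closest to mouse 4, by r = 0.20 against 0.05 with their own mouse for HHT, 0.09 against 0.01 for stimulated and 0.00 against -0.03 for untreated Input.

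The genes lie at these RefSeq positions in GRCm38.p6. Il2 is at chr3:37120713-37125954 on the minus strand, with no overlapping gene. Tnf (chr17:35199367-35202007) and Lta (chr17:35203165-35205578) are neighbours on the minus strand, 1157 bases apart, and a microRNA gene, Mir6974, overlaps Lta. Csf2 (chr11:54247270-54249899) and Il3 (chr11:54265085-54267279) are also neighbours, 15185 bases apart, in the type 2 cytokine region that holds Il4 (chr11:53612460-53618665). Csf2 and Il3 each overlap another annotated gene. The libraries do not mark strand, so reads of overlapping genes cannot be told apart. Tgfb1 is at chr7:25687002-25705077 on the plus strand, Ifng at chr10:118441046-118445894, Il10 at chr1:131019845-131024970 and Il17a at chr1:20730905-20734496.

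The upstream sequences of a gene that stimulation raised in each assay (Il2), of the other gene raised in both Input comparisons (Tnf) and of Tgfb1, which was not raised in Input, are shown for comparison. Each is the 250 bases before the RefSeq start of the gene in GRCm38.p6, 5′ to 3′ on the gene's own strand, with matches to GGAAA or its reverse complement TTTCC, the core that NFAT proteins bind, in capitals.
Il2, minus strand of chr3:37125955-37126204: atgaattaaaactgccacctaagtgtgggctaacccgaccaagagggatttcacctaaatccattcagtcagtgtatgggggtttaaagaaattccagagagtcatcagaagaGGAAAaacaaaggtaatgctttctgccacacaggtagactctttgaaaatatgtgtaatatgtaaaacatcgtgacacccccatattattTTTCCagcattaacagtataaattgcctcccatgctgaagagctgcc
Tnf, minus strand of chr17:35202008-35202257: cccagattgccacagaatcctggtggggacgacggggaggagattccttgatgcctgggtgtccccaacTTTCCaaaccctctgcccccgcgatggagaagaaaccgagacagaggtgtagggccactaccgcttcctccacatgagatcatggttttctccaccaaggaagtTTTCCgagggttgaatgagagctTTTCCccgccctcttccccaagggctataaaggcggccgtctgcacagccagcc
Tgfb1, plus strand of chr7:25686752-25687001: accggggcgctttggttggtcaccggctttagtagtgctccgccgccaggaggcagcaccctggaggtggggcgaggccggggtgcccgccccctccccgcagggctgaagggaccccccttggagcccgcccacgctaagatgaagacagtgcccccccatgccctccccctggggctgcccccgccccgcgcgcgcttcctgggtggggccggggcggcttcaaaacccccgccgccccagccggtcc
Il2 held 2 matches, Tnf 3 and Tgfb1 none. Among the windows not printed, that of Il4, which did not pass the test of stimulation, held 5 matches, Csf2 held 2, Ifng and Il3 held 1 each and Il17a held none. The window taken for Lta (chr17:35205352-35205601, 2 matches) lies mostly inside the RefSeq gene, which starts at 35205578 on the minus strand. It is thus not an upstream window like the others. At least 1 match stood in 55.6% of the 32851 RefSeq promoter windows of this length, and 3 or more in 6.39%. TATAAA, the letters of a TATA box, was 31 bases before the start in Il2 and 29 in Tnf, was absent from the Tgfb1 window as from those of Il4, Csf2 and Il3, and stood on either strand of 12.4% of all windows. It was also 30 bases before the start of Ifng and 31 before that of Il17a, genes with few or no reads. TGANTCA, the letters of an AP-1 site, was in none of the 3 windows, in that of Il17a and in 6.75% of all. These are matches of letters and no evidence of binding.

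Of the 10 genes, 5 gave too few reads for a test in either assay. Il17a, the cytokine of Th17 cells, had 0 reads in all 30 RiboTag and all 45 SPEED libraries. Over the summed depth of an assay, 0 reads allow up to 0.0431 CPM in RiboTag and 0.021 CPM in SPEED. Ifng, the macrophage-activating cytokine of Th1 cells, had 37 reads over RiboTag and 30 over SPEED, 18 of the 30 in the untreated SubPol library of mouse 3. Stimulated SubPol had 0 Ifng reads against 19 in untreated SubPol, at least 6.65-fold lower against a floor of 3 reads over the group, a difference that rests on that 1 library. The same library gave 7 of 33 SPEED reads of Il10, the anti-inflammatory cytokine. The other Il10 reads in SPEED were 4 and 19 in SubPol with Tregs (mice 2 and 3) and 3 in untreated Input of mouse 1.

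Il10 had 0 reads in every stimulated library without Tregs, in both assays. SubPol with Tregs held 23 reads against 0 in stimulated SubPol, at least 6.91-fold higher, with 2 of 4 libraries at 0. RiboTag Input with Tregs held 9 reads (0, 3, 2, 4 and 0 in mice 1 to 5) against 0 in stimulated Input, at least 2.61-fold higher. IP with Tregs held 1 read, and IL7-rested Input 2 in each of mice 1 and 2. Tregs are known to make interleukin 10, and the part of their own RNA in these reads was not tested.

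Csf2 and Il3, growth factors of myeloid and blood-forming cells that activated T cells make, were scarce and were seen mainly after stimulation. Csf2 had 10 reads in stimulated RiboTag Input against 1 in IL7-rested Input, a ratio of 9.34 with a counting interval of 1.33 to 405.3. Il3 had 8, 5, 6 and 0 reads in stimulated SubPol of mice 1 to 4 against 0 in all 4 untreated SubPol libraries, at least 6.04-fold higher. With all genes kept in the fit Il3 passed there (edgeR adjusted p = 0.00868). Il3 was also lower in SubPol with Tregs, 2 reads against 19 in stimulated SubPol, a ratio of 10.5 (2.54 to 93.3, counting error only). In 3 other fractions its reads ran the other way, with intervals that include 1. They were 8 in Pol with Tregs against 1 in stimulated Pol, a ratio of 6.96 (0.933 to 308.9), in the same cultures. They were 9 in RiboTag Input with Tregs against 2 in stimulated Input, a ratio of 3.92 (0.811 to 37.3), and 7 in IP with Tregs against 1 in stimulated IP, a ratio of 6.53 (0.839 to 294.5). SPEED Input held 10 with Tregs against 9 in stimulated Input, so Il3 had no common direction with Tregs. Intervals cover counting error only, since reads of amplified libraries are not independent molecules. A floor sets 3 reads in place of 0 and takes the larger count as exact. The folds given as "at least", here and above, are therefore not full bounds.

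Stimulation raised Il2, the growth factor of activated T cells, in both assays and every fraction. In SPEED Input it was 11.9, 11.7, 14.9 and 12.5 CPM in stimulated cells of mice 1 to 4, against 1.27, 0.966, 0.605 and 0.489 CPM in untreated cells. The groups did not overlap, and the change was 14.6-fold (95% interval 8.08 to 26.2, log2 fold change 3.86, SE 0.42, edgeR adjusted p = 5.2e-10). In SubPol it was 27.1, 23.7, 26.9 and 17.9 CPM in stimulated cells against 1.31, 1.04, 0.808 and 0.531 CPM in untreated cells, 24.1-fold (adjusted p = 1.8e-11). In Pol it was 6.45, 6.40, 2.22 and 8.03 CPM in stimulated cells against 0, 0.293, 0.231 and 0 CPM in untreated cells, with 53 reads in stimulated Pol and 2 in untreated Pol. The ratio there was 34.8, with a counting interval of 9.17 to 294.8 (edgeR adjusted p = 1.84e-09). Every stimulated SPEED library thus held more Il2 than any untreated library of its fraction. In both assays Il2 passed the filter on low counts through the cultures with beads, where it was high. Its p-values for stimulation thus go with a rise that was favoured in advance.

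In RiboTag Input, Il2 was 6.68, 7.86, 21.8, 20.4 and 11.0 CPM in stimulated cells of mice 1 to 5, against 0.928, 0.46, 1.90, 2.86 and 1.54 CPM in IL7-rested cells. In IP it was 7.81, 5.27, 16.5, 19.1 and 9.31 CPM in stimulated cells against 1.22, 1.33, 0, 0.431 and 1.47 CPM in IL7-rested cells. Stimulated libraries of mice 3 and 4 were the highest in both fractions, and the groups did not overlap in either. Il2 was 8.63-fold higher in Input (log2 3.11, SE 0.51, edgeR adjusted p = 3.72e-06) and 12.2-fold higher in IP (log2 3.61, SE 0.55, adjusted p = 1.07e-06, n = 5 mice per group). The reference cultures differ, rested in IL7 in RiboTag and untreated in SPEED, so the folds stand side by side without a test.

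Tnf, which encodes the inflammatory cytokine tumor necrosis factor, rose less. In SPEED Input it was 48.7, 38.9, 51.5 and 46.3 CPM in stimulated cells against 21.0, 4.35, 25.4 and 13.5 CPM in untreated cells, 2.90-fold higher (log2 1.54, SE 0.37, edgeR adjusted p = 6.68e-04). In SubPol it averaged 72.1 ± 8.91 CPM in stimulated cells and 32.0 ± 13.8 CPM in untreated cells (SD, n = 4 each), 2.24-fold higher (adjusted p = 0.00695, and 0.0513 without mouse 4). In both, no stimulated library was as low as an untreated one. In Pol the means were 21.5 ± 6.51 CPM in stimulated cells and 13.4 ± 7.67 CPM in untreated cells (SD, n = 4 each), the groups overlapped, and the log2 difference of 0.63 did not pass (edgeR adjusted p = 0.17).

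In RiboTag Input, Tnf was 50.4, 57.3, 61.9, 67.3 and 58.9 CPM in stimulated cells and 41.3, 48.4, 17.1, 5.73 and 25.2 CPM in IL7-rested cells, 2.15-fold higher (log2 1.10, SE 0.34, edgeR adjusted p = 0.00575, and 0.0564 without mouse 4). IL7-rested libraries of mice 1 and 2 lay close under the stimulated ones, and those of mice 3 to 5 lay far below. In IP it was 22.0, 26.3, 27.3, 28.1 and 26.7 CPM in stimulated cells against 15.8, 28.4, 5.85, 14.2 and 7.84 CPM in IL7-rested cells. The groups overlapped through mouse 2. The 1.79-fold difference in IP passed narrowly (edgeR adjusted p = 0.0443) and did not pass without mouse 1, 3, 4 or 5 (adjusted p = 0.0627, 0.203, 0.0786 and 0.166) or with all genes kept (0.135).

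Lta encodes lymphotoxin alpha, a relative of tumor necrosis factor that shapes lymphoid tissue. In SPEED Input it was 150, 144, 138 and 136 CPM in stimulated cells against 30.6, 64.5, 47.2 and 41.6 CPM in untreated cells, 3.09-fold higher (log2 1.63, SE 0.21, edgeR adjusted p = 3.7e-08). The rise was 3.51-fold in Pol (adjusted p = 5.62e-09) and 3.13-fold in SubPol (adjusted p = 2.97e-08), and the groups overlapped in no fraction. In RiboTag Input, Lta was 190, 170, 192, 179 and 152 CPM in stimulated cells against 264, 182, 124, 102 and 129 CPM in IL7-rested cells. The IL7-rested library of mouse 1 was above every stimulated library, and that of mouse 2 was above 3 of them. The log2 difference was 0.14 (SE 0.19, edgeR adjusted p = 0.539) in Input and 0.36 (SE 0.19, adjusted p = 0.0911) in IP. In IP it passed with the mouse as a block in the fit (log2 0.41, adjusted p = 0.0196) and without mouse 1 (log2 0.50, adjusted p = 0.0164). Without the IL7-rested libraries of mice 1 and 2 it passed in Input (log2 0.60, edgeR adjusted p = 3.39e-04) and IP (log2 0.71, adjusted p = 4.48e-05). Those are the high IL7-rested libraries, so leaving them out favours a rise.

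Il4, the type 2 cytokine that drives B cell class switching, had enough reads for a test only in RiboTag, where it was 3.64, 8.32, 12.6, 15.4 and 12.1 CPM in stimulated Input against 3.71, 4.14, 7.62, 10.5 and 5.14 CPM in IL7-rested Input. The groups overlapped and the log2 difference of 0.76 did not pass (SE 0.47, edgeR adjusted p = 0.162). In IP it was 0.27 (SE 0.48, adjusted p = 0.637). Over SPEED Il4 had 58 reads in all and 0 in 25 of 45 libraries.

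Tgfb1, which encodes transforming growth factor beta 1, a suppressive cytokine that T cells keep as a latent store, had a pattern of its own. In SPEED Input it was 81.6, 105, 69.1 and 103 CPM in stimulated cells against 88.9, 140, 96.2 and 129 CPM in untreated cells, lower in 4 of 4 mice but overlapping. The log2 difference of -0.34 did not pass (SE 0.15, edgeR adjusted p = 0.0566). In Pol it was 132, 117, 122 and 104 CPM in stimulated cells against 80.8, 86.0, 74.7 and 61.7 CPM in untreated cells, with no overlap. That was a rise of 1.57-fold (log2 0.65, SE 0.15, adjusted p = 4.13e-04). In SubPol the log2 difference was -0.09 (adjusted p = 0.628). In RiboTag it was -0.08 in Input (adjusted p = 0.699) and 0.04 in IP (adjusted p = 0.837).

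**Figure D1:**
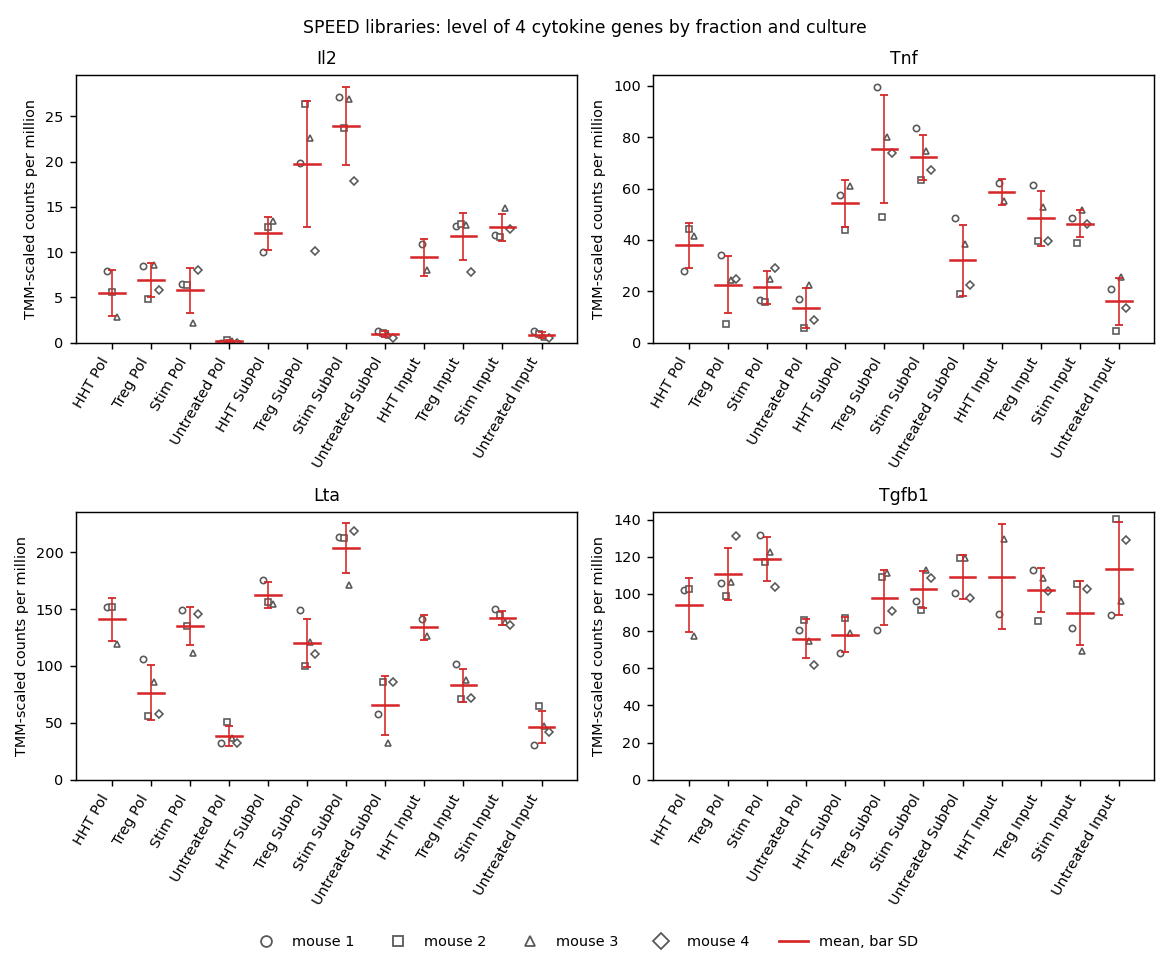
Level of Il2, Tnf, Lta and Tgfb1 in each SPEED library, in TMM-scaled CPM, by culture and fraction. Points are mice, red lines the group mean and bars the SD (n = 4, with n = 3 for HHT Pol and SubPol and n = 2 for HHT Input). Il2 stood near 0 in every untreated group, and Lta was lower with Tregs than in stimulated cells in each fraction with no overlap.

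By count, 3 of the 4 members tested in SPEED were higher after stimulation in each fraction, against 27.9%, 28.5% and 27.5% of all tested genes in Input, Pol and SubPol. In RiboTag 2 of 5 were higher in Input and 2 of 5 in IP, against 32.0% and 33.6% of all genes. No tested member passed as lower. The median log2 change of the tested members was 1.58 in SPEED Input and 0.76 in RiboTag Input, against 0.01 and -0.01 over all tested genes. Members that passed the filter on low counts are not all members, and the 2 assays tested different numbers of them. Il2 had 2 to 5 reads a library in untreated SPEED Input against 33 to 44 in stimulated Input. In RiboTag Input it had 1 to 6 in IL7-rested cells against 11 to 53 in stimulated cells. It passed the filter through the cultures with beads, where it was high, so its rise was favoured in advance. These counts and medians are thus a description and no support for a rise of the set.

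**Figure D2:**
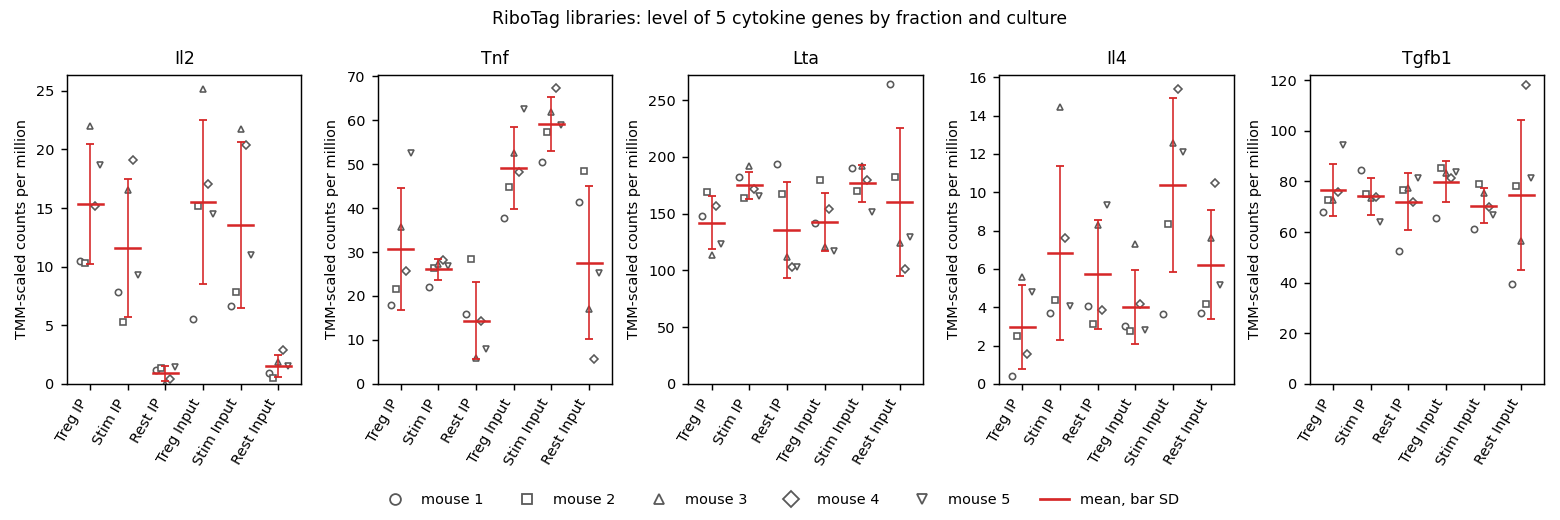
Level of Il2, Tnf, Lta, Il4 and Tgfb1 in each RiboTag library, in TMM-scaled CPM, by culture and fraction. Points are mice, red lines the group mean and bars the SD (n = 5). Rested Input of mouse 1 was the highest Lta library (264 CPM), and stimulated IP of Tnf (22.0 to 28.1 CPM) lay below stimulated Input (50.4 to 67.3 CPM).

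With Tregs added to the stimulated culture, Lta in SPEED and Il4 in RiboTag had lower levels without passing the test, and Il2, Tnf and Tgfb1 had smaller differences that did not pass either. No member passed in any of the 5 comparisons in the main edgeR fit, which has no term for mouse or culture. Of all tested genes 4.53% and 5.69% passed in RiboTag Input and IP, and 0.587%, 0.282% and 1.15% in SPEED Input, Pol and SubPol. At an unadjusted p under 0.05 there was 1 member in each, Il4 in RiboTag and Lta in SPEED. DESeq2 called 0 members in RiboTag Input and IP and 1, Lta, in each SPEED fraction. The stimulated libraries that Tregs were set against are those that stimulation was measured in.

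Lta in SPEED Input was 101, 70.8, 87.7 and 71.7 CPM with Tregs, against 150, 144, 138 and 136 CPM in stimulated cells. In Pol it was 106, 56.3, 85.6 and 57.9 CPM with Tregs against 149, 135, 111 and 145 CPM in stimulated cells. In SubPol it was 149, 99.9, 121 and 111 CPM with Tregs against 213, 213, 171 and 219 CPM in stimulated cells. It was lower with Tregs in 4 of 4 mice in every fraction, and the groups did not overlap in any. Input levels with Tregs (70.8 to 101 CPM) lay above those of untreated Input (30.6 to 64.5 CPM). The 3 fractions come from the same cultures and are not independent. The log2 change was -0.78 in Input (95% interval -1.19 to -0.36, edgeR adjusted p = 0.068), -0.80 in Pol (-1.23 to -0.37, adjusted p = 0.0934) and -0.76 in SubPol (-1.17 to -0.35, adjusted p = 0.0549). With the mouse as a block Lta passed in Input (adjusted p = 0.0454) and SubPol (0.0374) and not in Pol (0.0717). With DESeq2 it passed in all 3 (adjusted p = 0.0165, 0.0225 and 0.0168), and with only the 2 groups in the fit in Input (0.00839) and SubPol (0.0446). With any 1 mouse left out it passed in no fraction. The edgeR adjusted p was then 0.136 to 0.342 in Input, 0.141 to 0.789 in Pol and 0.106 to 0.315 in SubPol.

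In RiboTag Input, Lta was 142, 180, 121, 154 and 117 CPM with Tregs against 190, 170, 192, 179 and 152 CPM in stimulated cells, lower in 4 of 5 mice and higher in mouse 2. The log2 change was -0.31 in Input (95% interval -0.69 to 0.08, edgeR adjusted p = 0.406) and -0.30 in IP (-0.68 to 0.08, adjusted p = 0.388). The change in Input was 0.47 higher in RiboTag than in SPEED, a difference between the assays that did not pass (SE 0.17, edgeR adjusted p = 0.335). In that test 0 of 5 members passed in edgeR and 0 in DESeq2 (1 and 2 at an unadjusted p under 0.05), against 0.461% of all tested genes.

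Il4 in RiboTag Input was 3.01, 2.76, 7.28, 4.15 and 2.83 CPM with Tregs against 3.64, 8.32, 12.6, 15.4 and 12.1 CPM in stimulated cells. It was lower in 5 of 5 mice, but the groups overlapped through the low stimulated library of mouse 1. The log2 change of -1.38 (SE 0.48) did not pass (edgeR adjusted p = 0.0994). It passed with the mouse as a block (adjusted p = 0.0204) and with only the 2 groups in the fit (0.0343). With any 1 mouse left out it did not pass (edgeR adjusted p = 0.0851 to 0.322). In IP, Il4 was 0.388, 2.48, 5.58, 1.57 and 4.79 CPM with Tregs against 3.67, 4.39, 14.5, 7.63 and 4.05 CPM in stimulated cells, lower in 4 of 5 mice (log2 change -1.18, SE 0.51, adjusted p = 0.174). These levels rest on 1 to 40 reads a library. SPEED held few Il4 reads and they did not share that direction, with 12 in Input with Tregs against 6 in stimulated Input, 0 in Pol with Tregs against 3 in stimulated Pol and 10 in SubPol with Tregs against 4 in stimulated SubPol. The change in Input was 1.90 lower on the log2 scale in RiboTag than in SPEED (a difference of -1.90, SE 0.93), which did not pass (edgeR adjusted p = 0.543).

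For Il2 the log2 change with Tregs was 0.19 in RiboTag Input (95% interval -0.61 to 0.99) and 0.40 in IP (-0.41 to 1.21). In SPEED it was -0.11 in Input (-0.79 to 0.56), 0.33 in Pol (-0.41 to 1.07) and -0.27 in SubPol (-0.93 to 0.39). None passed (edgeR adjusted p = 0.626 to 0.93), and intervals this wide do not show that the levels were equal. The log2 differences were -0.27 to 0.23 for Tnf and -0.11 to 0.18 for Tgfb1 over the 5 comparisons, none past the test. Tgfb1 in RiboTag Input was 65.8, 85.3, 83.4, 81.4 and 83.9 CPM with Tregs against 61.3, 79.0, 75.5, 70.0 and 66.6 CPM in stimulated cells, higher in 5 of 5 mice with overlapping groups (log2 difference 0.18, 95% interval -0.17 to 0.54, edgeR adjusted p = 0.643). In the other comparisons Tgfb1 was higher with Tregs in 2 of 5 mice in IP, 2 of 4 in SPEED Input, 1 of 4 in Pol and 1 of 4 in SubPol.

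**Figure D3:**
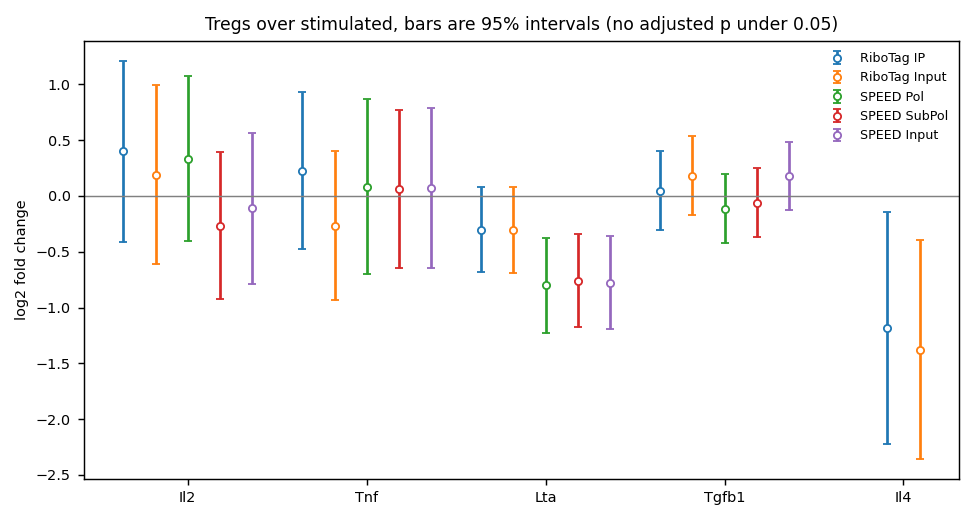
Log2 fold change of Tregs over stimulated cells for Il2, Tnf, Lta, Tgfb1 and Il4 (Il4 in RiboTag only), with 95% intervals that are not adjusted for the number of genes. Lta in SPEED (-0.76 to -0.80) and Il4 (-1.38 in Input, -1.18 in IP) lie below 0, and none passed the adjusted test.

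Pol and SubPol levels were each scaled within their own library, so their ratio places a gene against the other genes of the culture. It does not give the share of an mRNA on polysomes, and a shift common to all mRNAs would not show. The median log2 ratio over all tested genes was -0.01 in stimulated cells and 0.01 with HHT. The same limit holds for IP over Input. In stimulated SPEED cells Il2, Tnf and Lta were lower in Pol than in SubPol, and Tgfb1 was not. Within a culture, the Pol level of Il2 was 23.8%, 26.9%, 8.25% and 44.9% of its SubPol level in mice 1 to 4. That of Tnf was 19.7%, 24.9%, 33.1% and 43.5%, and that of Lta 70.0%, 63.6%, 65.0% and 66.4%. Pol and SubPol levels did not overlap for any of the 3. How often groups of this size fail to overlap over all tested genes was not counted, here or in the other comparisons. For Tgfb1 the Pol level was 136.5%, 128.1%, 108.3% and 95.6% of the SubPol level.

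The fitted log2 ratio of Pol over SubPol in stimulated cells was -2.10 for Il2 (SE 0.36, edgeR adjusted p = 6.24e-06), -1.76 for Tnf (SE 0.38, adjusted p = 1.79e-04) and -0.60 for Lta (SE 0.21, adjusted p = 0.0163, and 0.062 without mouse 4). For Tgfb1 it was 0.22 (SE 0.15, adjusted p = 0.249). So 3 of 4 members were lower in Pol, against 21.8% of all tested genes. With Tregs the same 3 were lower, against 21.6% of all genes, with log2 ratios of -1.50, -1.74 and -0.64 (edgeR adjusted p = 4.44e-04, 1.83e-04 and 0.0127). The Lta call was lost there without mouse 4 (adjusted p = 0.075). In untreated cells all 4 were lower, against 17.8% of all genes. The untreated ratios were -1.23 for Tnf (edgeR adjusted p = 0.00922, and 0.0718 without mouse 1), -0.76 for Lta (0.00569, but 0.108 without mouse 4 and 0.0532 with only the 2 groups in the fit) and -0.53 for Tgfb1 (0.00543). Il2 had 2 reads in untreated Pol against 10 in SubPol, 6.73-fold lower with a counting interval of 1.43 to 63.2 (edgeR adjusted p = 0.0121, and 0.114 without mouse 1).

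The log2 ratio of Pol over SubPol of Tgfb1 was thus 0.22 in stimulated cells, with a 95% interval that includes 0 (-0.09 to 0.53), and -0.53 in untreated cells. It was 0.74 higher in stimulated cells (95% interval 0.31 to 1.18) and stood at the threshold (edgeR adjusted p = 0.0513). It passed with the mouse as a block (adjusted p = 0.0389), with the culture as a block (0.0199), with RLE size factors (0.0456) and with DESeq2 (0.0211). With the culture as a block 849 of all tested genes passed, against 323 in the main fit. With any 1 mouse left out the change for Tgfb1 did not pass (edgeR adjusted p = 0.0951 to 0.182). For Il2, Tnf and Lta the ratio changed by 0.34, -0.53 and 0.17 with stimulation (adjusted p = 0.657 to 0.889). No member passed this test in the main edgeR fit (1 at an unadjusted p under 0.05, 1 past the test in DESeq2), against 2.60% of all genes.

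With Tregs no Pol over SubPol ratio moved by a detectable amount. The log2 differences were 0.60 for Il2, 0.02 for Tnf, -0.04 for Lta and -0.05 for Tgfb1 (edgeR adjusted p = 0.99999 for each), with 95% intervals from -1.03 for Tnf to 1.59 for Il2. Of all tested genes 0 passed in edgeR (328 at an unadjusted p under 0.05) and 0 in DESeq2 (337), and of the members 0 in either tool at either threshold. In the RiboTag ratio of IP over Input with Tregs it was likewise 0 of all genes in edgeR (125 at an unadjusted p under 0.05) and 0 in DESeq2 (151), with member differences of -0.14 to 0.49.

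**Figure D4:**
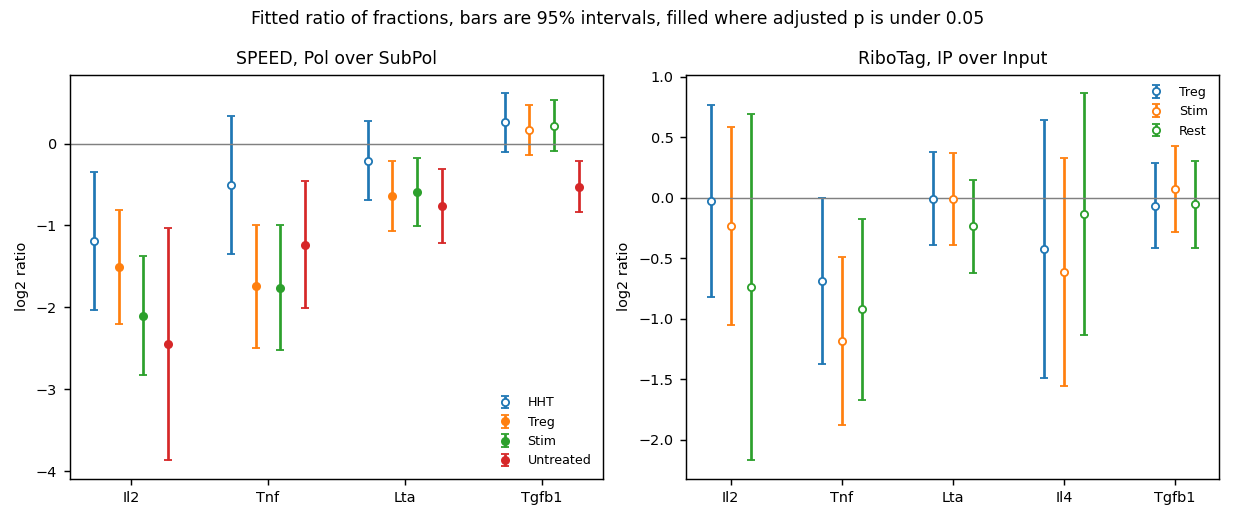
Fitted log2 ratio of Pol over SubPol in SPEED (left) and of IP over Input in RiboTag (right) for each tested member and culture, with 95% intervals not adjusted for the number of genes. Filled points passed the adjusted test: all members in untreated cells, and Il2, Tnf and Lta in stimulated cells and with Tregs.

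In RiboTag, Tnf had the lowest log2 ratio of IP over Input of the 5 tested members in each of the 3 cultures. Its IP level was 43.7%, 46.0%, 44.0%, 41.8% and 45.4% of the Input level in the 5 stimulated cultures, and IP and Input did not overlap. With Tregs it was 47.4%, 48.2%, 67.9%, 53.3% and 84.0%, and in IL7-rested cells 38.2%, 58.7%, 34.1%, 248.3% and 31.1%, where mouse 4 ran the other way on 33 IP and 12 Input reads. The log2 ratio was -0.69 with Tregs (edgeR adjusted p = 0.295), -1.18 in stimulated cells (0.0872) and -0.92 in IL7-rested cells (0.125), so none passed. With the culture as a block, which takes out what IP and Input of a culture share, Tnf passed in all 3 (edgeR adjusted p = 0.0332, 0.00287 and 0.0228). That setting called more genes in general. It called 1207, 849 and 1922 of the 10751 tested genes, against 199, 105 and 741 in the main fit. In stimulated cells Tnf also passed with DESeq2 (0.0388) and with only the 2 groups in the fit (7.79e-05). With any 1 mouse left out it did not pass in stimulated cells (edgeR adjusted p = 0.163 to 0.264).

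In stimulated cells Lta in IP was 95.7%, 96.3%, 100.1%, 96.0% and 109.1% of Input. Il2 ranged over 67.1% to 116.9%, and Il4 over 33.5% to 115.0%. Tgfb1 was higher in IP in 2 of 5 mice, with 137.8% of the Input level in mouse 1. In the main edgeR fit no member passed in stimulated, IL7-rested or Treg cultures, against 0.977%, 6.89% and 1.85% of all genes. At an unadjusted p under 0.05 it was 1 in each, Tnf, and DESeq2 called 1, 0 and 0. No member passed the test of a change of the ratio with stimulation in edgeR or DESeq2 (log2 differences -0.48 to 0.50, edgeR adjusted p = 0.9999 for each, 0 at an unadjusted p under 0.05 in either tool), against 0.0279% of all genes.

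With HHT for 10 min, Il2 in SubPol was the only member level that passed the test. It was 10.0, 12.7 and 13.5 CPM with HHT (mice 1 to 3) against 27.1, 23.7, 26.9 and 17.9 CPM in stimulated cells (mice 1 to 4). The groups did not overlap, and Il2 fell by 0.98 on the log2 scale (SE 0.36, edgeR adjusted p = 0.0372). That was 1 of 4 members, against 14.2% of all tested genes lower in that comparison, and the call was lost without mouse 1, 2 or 3 (adjusted p = 0.246, 0.151 and 0.109) and with all genes kept (0.215). In Pol, Il2 was 7.94, 5.62 and 2.89 CPM with HHT against 6.45, 6.40, 2.22 and 8.03 CPM in stimulated cells (log2 difference -0.07, adjusted p = 0.97). In Input it was 10.9 and 8.01 CPM with HHT against 11.9, 11.7, 14.9 and 12.5 CPM in stimulated cells (-0.42, adjusted p = 0.829).

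Tnf in Pol was 28.1, 44.4 and 41.4 CPM with HHT against 16.5, 15.8, 24.6 and 29.2 CPM in stimulated cells, higher in 3 of 3 mice (log2 difference 0.84, edgeR adjusted p = 0.266). In SubPol it was 57.6, 43.8 and 61.2 CPM with HHT against 83.5, 63.3, 74.5 and 67.1 CPM in stimulated cells, lower in 3 of 3 mice without overlap (log2 difference -0.41, adjusted p = 0.448). The Pol level was thus 48.7%, 101.4% and 67.7% of the SubPol level with HHT, against 19.7% to 43.5% in stimulated cells. Both are relative to the other genes of each library and do not show that Tnf mRNA moved onto polysomes. The change of the ratio was 1.25 (SE 0.56) and did not pass (edgeR adjusted p = 0.104). It passed with the mouse as a block (0.0258), the culture as a block (0.0123) and only the groups compared in the fit (0.007). With the culture as a block 3495 of all tested genes passed, against 2860 in the main fit. With any 1 mouse left out the change for Tnf did not pass (edgeR adjusted p = 0.137 to 0.259). The changes for Il2, Lta and Tgfb1 were 0.91, 0.39 and 0.04 (adjusted p = 0.243 to 0.941).

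Tgfb1 was lower with HHT in 3 of 3 mice in Pol and in SubPol, without overlap and without passing. In Pol it was 102.2, 102.9 and 77.5 CPM with HHT against 132, 117, 122 and 104 CPM in stimulated cells (log2 difference -0.35, edgeR adjusted p = 0.254). In SubPol it was 68.0, 87.0 and 79.0 CPM with HHT against 96.4, 91.6, 113 and 108 CPM in stimulated cells (log2 difference -0.39, adjusted p = 0.073). In Input it was 89.2 and 129 CPM with HHT against 81.6, 105, 69.1 and 103 CPM in stimulated cells (0.27, adjusted p = 0.698).

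No member's Pol over SubPol ratio passed the test of its change with HHT in the main edgeR fit or DESeq2 (1 at an unadjusted p under 0.05 in each), against 23.0% of all genes. Within HHT cultures no member was lower in Pol than in SubPol by edgeR (1, Il2, at an unadjusted p under 0.05, and 1 in DESeq2), against 2.24% of all genes. In Pol and Input no member changed with HHT by edgeR or DESeq2 (2 and 0 at an unadjusted p under 0.05 in each tool), against 5.42% and 0.105% of all genes. HHT groups hold 3 libraries, and 2 in Input.

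Across all 74 fitted libraries, with log2 CPM centred on each assay, Il2 and Tnf correlated with r = 0.68, Il2 and Lta with 0.64, and the neighbours Tnf and Lta with 0.55. Tgfb1 had r of -0.14 to 0.13 with these 3. The genes most like Il2 were ENSMUSG00000021276 (r = 0.93) and ENSMUSG00000016498 (r = 0.93), of 9056 compared. Libraries of a culture share RNA and mouse, and the groups differ in stimulation, so these r values describe the pattern over the groups and carry no test.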

How the data were processed

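The authors deposited raw read counts per gene, 1 table per assay, on GRCm38. The submitters' processing notes name SAMtools 1.2, HTSeq 0.4.1, FastQC 0.11.3 and Picard 1.134, and the aligner is not given in the sources used here. Libraries were made with SMART-Seq v4 and NexteraXT, per the labels' protocols, which do not mark strand. Further columns of no sample (16) were not used, nor was the later of 2 HHT Input libraries labelled mouse 1 (chi-square per degree of freedom 5.34 between them).

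The deposited counts were fitted with edgeR 4.0.16 in R 4.3.3, an assay at a time with every group in the model (robust quasi-likelihood test, TMM, filterByExpr with minimum count 10 and minimum total 15, two-sided, Benjamini-Hochberg over all tested genes, threshold 0.05), with 10751 genes tested in RiboTag (5 members) and 12428 in SPEED (4 members). SE is the log2 fold change over the root of F. DESeq2 1.42.0 and other settings were alternatives. All 10 members are named, plus the 2 genes with the highest r to a member.

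Per the labels, libraries of an assay that carry the same number are from 1 mouse. Deviations from group means correlated within a mouse with mean r = 0.15 in RiboTag (-0.03 to 0.42) and 0.04 in SPEED (-0.07 to 0.20). Any 2 libraries of a group differed beyond sampling noise (chi-square per degree of freedom at least 1.81). P-values measure the spread between libraries of a group, each from another mouse, pooled over the groups of an assay. The main fit has no term for mouse or culture, so libraries of the same mouse or culture count as independent. Some calls changed when such a term was added. The members, lists and tests were chosen with earlier results of these data known. Planned lists and marker genes need symbols, which could not be matched here, and were not tested.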

Additional observations from a re-analysis of the deposited data

Results flagged for a closer look

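In 6 of the 81 groups of 4 or 5 libraries tested, 1 library lay far from the others by Dixon's ratio. Chance flags about 1 group in 20 where values are normally spread, which sparse counts are not. A group with reads in only 1 library has a ratio of 1 whatever its level, as had Ifng in IL7-rested RiboTag Input and Il10 in untreated SubPol. Il2 was 7.82 CPM in SPEED Input with Tregs of mouse 4, below 12.9 to 13.2 CPM in the other 3. Ifng was 2.38 CPM (5 reads) in IL7-rested RiboTag Input of mouse 3 and 0 in the other 4. In untreated SubPol of mouse 3, Ifng was 7.27 CPM (18 reads) and Il10 2.83 CPM (7 reads). Lta was 171.3 CPM in stimulated SubPol of mouse 3, below 213 to 219 CPM in the other 3. Tgfb1 was 65.8 CPM in RiboTag Input with Tregs of mouse 1, below 81.4 to 85.3 CPM in the other 4.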

How the results depend on the processing

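The 10 genes were recomputed under other settings, and no member that passed in any setting changed sign. Of the counts of members past the test in these settings, 259 stayed within 1.5 times the count in the report, 23 were higher and 11 lower. With the mouse as a replicate block, the count was 1 in place of 0 for Tregs in RiboTag Input (Il4), SPEED Input (Lta) and SPEED SubPol (Lta), and for the change of Pol over SubPol with stimulation (Tgfb1) and with HHT (Tnf). For stimulation in RiboTag IP it was 3 in place of 2 (Lta added), and the block changed no other call. With DESeq2 it was 1 in place of 0 for Tregs in the 3 SPEED fractions (Lta), IP over Input of stimulated cells (Tnf), Pol over SubPol with HHT (Il2) and its change with stimulation (Tgfb1). With only the groups compared it was 1 for Tregs in RiboTag Input, SPEED Input and SPEED SubPol, for IP over Input of stimulated cells and for the change of Pol over SubPol with HHT, and 2 in place of 4 for Pol over SubPol of untreated cells (Lta lost, and Il2 under the filter). With the culture as a block it was 2 for IP over Input of IL7-rested cells (Tnf and Lta), 1 for stimulated cells and 1 with Tregs, and 1 for each of those changes of Pol over SubPol. RLE size factors gave 1 for the change with stimulation. With no filter on low counts it was 5 for stimulation in SPEED SubPol, with Ifng (lower) and Il3 (higher) added. Under that setting it was 1 for stimulation in RiboTag IP and 0 for HHT in SubPol. Leaving out a mouse gave 1 to 2 for stimulation in RiboTag Input, 1 to 2 in RiboTag IP, 0 (without mouse 1, 2 or 3) and 1 (without mouse 4) for HHT in SubPol and 2 to 4 for Pol over SubPol of untreated cells. Without the untreated SubPol library of mouse 3 no count of members changed. Without the IL7-rested libraries of mice 1 and 2, Lta was added for stimulation in RiboTag Input and IP. Counts over all genes, in either direction, kept within 1.5 times for stimulation in each fraction, HHT in SubPol and Pol over SubPol outside HHT. For Tregs over stimulated cells they were 487 (192 to 948 over the settings) in RiboTag Input, 612 (221 to 1077) in IP, 73 (6 to 257) in SPEED Input, 35 (3 to 78) in Pol and 143 (19 to 331) in SubPol. For HHT they were 13 (2 to 35) in Input, 674 (206 to 961) in Pol, 839 (139 to 1304) for Pol over SubPol and 2860 (1664 to 3495) for its change. For IP over Input they were 741 (179 to 1922) in IL7-rested, 105 (35 to 849) in stimulated and 199 (42 to 1207) in Treg cultures, and for its change with stimulation 3 (0 to 19). The change of Pol over SubPol with stimulation gave 323 (62 to 849), and the difference between assays 50 (17 to 133). The cause of these shifts was not tested. Reads limit Il4, Il2 in untreated cells and the 5 untested genes, and 3 HHT libraries a fraction limit those comparisons.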
